A study of Mus musculus with 10 samples.

Results

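AHR ChIP-seq peaks of mouse colon organoids that lie in repeated sequence other than CA repeats were examined. The members were the wild type peaks on chromosomes 1 to 19, X and Y whose 200 bp around the midpoint were at least 75% soft-masked (written in lower case in the mm10 genome, which marks repeats) and held fewer than 3 separate runs of 3 CA or 3 TG units. Of the 123366 wild type peaks on these chromosomes, 47305 (38.3%) were members. The rule was applied to sequence alone and used neither the peak score nor the AHR knockout (KO) list. The name "interspersed repeats" held for a large share of the members and not for all: 26811 (56.7%) matched a LINE-1 element and 6954 (14.7%) a B1 element, while 11843 (25.04%) were tandem repeats of a short unit other than CA.

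The aryl hydrocarbon receptor (AHR) responds to small molecules from diet, microbes and pollutants and switches on genes such as those of detoxifying enzymes. Together with its partner ARNT it recognises DNA words with the core GCGTG, most often within TNGCGTG, where N is any base. Long interspersed elements (LINE-1) are mobile elements that copy themselves through RNA and code for 2 proteins in consecutive open reading frames. Most genomic copies have lost their 5′ part, so that their 3′ end is the stretch found most often. B1 elements are short mobile elements that depend on LINE-1 proteins, while tandem repeats are rows of a short unit. CpG dinucleotides, the site of DNA methylation, form the centre of the GCGTG core.

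Organoids are epithelial cultures grown from colonic stem cells, and those used here were in a stem cell medium (WENR) and had been given FICZ, which activates AHR, at 5 nM for 1 hour. Wild type organoids had 4 AHR ChIP libraries and 4 inputs (chromatin without antibody), and AHR KO organoids had 1 of each. In the study's methods the KO organoids came from mice in which a villin-driven Cre removes floxed Ahr from the epithelium, and both genotypes received the same FICZ treatment. The wild type peaks are a single list over all cultures (123652 peaks) and the KO peaks a list of 1931, so no value per culture was analysed here, and nothing that sets the genotypes against each other could be checked over replicates.

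The words of 24 bases that recurred most among the members are shown first, since they say what the members are made of. Each was found by taking the word held by the most members, setting those members aside and repeating. All bases are in lower case, and the strand is the one on which the word was counted. Words 1, 3 and 5 lie in the reference LINE-1 copy described later, at positions 6501, 6560 and 6399, and word 4 is called B1-type from general knowledge of that element.

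word 1 (LINE-1): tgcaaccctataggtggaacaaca
word 2 (tandem AG): gagagagagagagagagagagaga
word 3 (LINE-1): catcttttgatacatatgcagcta
word 4 (B1-type): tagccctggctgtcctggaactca
word 5 (LINE-1): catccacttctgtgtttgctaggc

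Word 1 stood in 6538 members (13.8%), word 2 in 5352 (11.3%), word 3 in 6497 (13.7%), word 4 in 3416 (7.22%) and word 5 in 4296 (9.08%). Together the 5 words were found in 46.1% of the members, and 25 such words in 82.5%. None of them is particular to peaks: the mm10 genome has 40521 copies of word 1, 36026 of word 3 and 35920 of word 5. Of these copies, 19.9% of word 1, 22.4% of word 3 and 19.04% of word 5 lay inside a wild type peak, against 1.14% of all genome positions. Word 4 had 55550 copies, 9.04% of them inside a wild type peak. The copies inside a KO peak numbered 5, 6, 5 and 0 for words 1, 3, 4 and 5. Word 2, the AG row, had 1225890 overlapping copies, of which 23.5% lay inside a wild type peak and 709 (0.0578%) inside a KO peak, against 0.0249% of all genome positions. Recurrence was near complete, as 47277 members (99.9%, Wilson interval 99.91 to 99.96) held a word with at least 10 genome copies. The background over all wild type peaks was 99.3%, so that repeated words were no mark of the members, while only 253 of the 560 unique peaks (under 25% masked) held one (45.2%).

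The members fell into 4 kinds. A window was called LINE-1 when it aligned over at least 100 bp to a reference LINE-1 copy, otherwise B1 when it aligned over at least 60 bp to the B1 copy annotated in RefSeq, otherwise tandem when at least 50 of its bases lay in perfect tandem runs. LINE-1 held 26811 members (56.7%), B1 6954 (14.7%), tandem 11843 (25.04%) and the remaining windows 1697 (3.59%). These kinds were set after the sequences had been seen, and their values are given as a description with no test.

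The members were weak peaks. The score, the authors' fold enrichment of the ChIP pileup over background, had a median of 4.55 (quartiles 3.95 and 5.27) in the members, 5.98 in the CA-run peaks (at least 75% masked with 3 or more runs, n = 29534) and 5.26 in the unique peaks. LINE-1 members had the lowest median, 4.20, followed by the remaining members with 4.76, B1 with 4.79 and tandem with 5.04. Of the members, 79 had a score of 10 or more, against 863 of the CA-run peaks. LINE-1 made up 80.01% of the members that scored under 4 and 24.9% of those from 6 to 8, and tandem repeats rose from 9.16% to 53.4% between the same bands. Among the 79 highest members the kinds were again mixed, with 46.8% LINE-1 and 44.3% tandem.

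**Figure D1:**
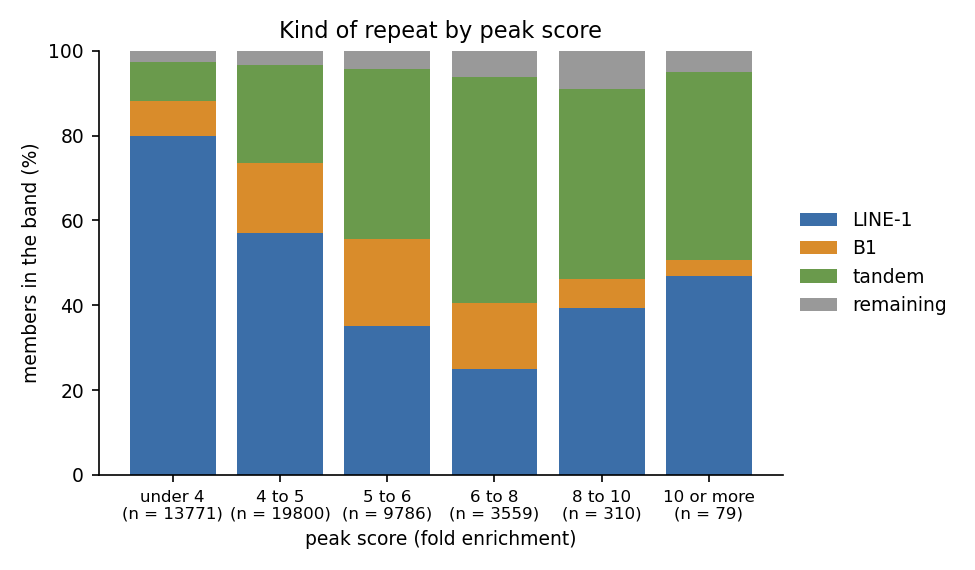
Share of each kind of repeat (y axis, percent of the members in a band) by peak score (x axis, fold enrichment, with the number of members under each bar). LINE-1 falls from 80.01% of the members under 4 to 24.9% from 6 to 8, and tandem repeats rise from 9.16% to 53.4%.

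Many members could not be placed by a single read. On average 63.7% of the 100-base words in a member's window occurred once in the genome, against 97.3% in CA-run peaks. LINE-1 members had 45.7%, and in 32.2% of them none of these words was unique. The means of the B1, tandem and remaining members were 88.4%, 86.7% and 86.4%. How the aligner's reads with several equal places were treated is not stated in the sources used here, and its part in the LINE-1 values was not tested.

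The LINE-1 members lay at the 3′ end of the element. The reference was a copy at chr8:75139995-75146794 (mm10, minus strand, 6800 bp) with open frames of 1179 bp (positions 1037 to 2215) and 3900 bp (2202 to 6101), which the name LINE-1 rests on together with general knowledge of the element, since no repeat annotation was used here. In all, 21443 LINE-1 members (79.98%) had their midpoint after the second open frame, 5132 (19.1%) in it, 234 (0.873%) in the first, and 2 before the first. The median midpoint was at position 6500.5 (quartiles 6312.5 and 6587.5).

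The same position stood out when copy number was taken into account. Every 24-base word of the reference was counted in the genome and inside peaks. After the second open frame 16.7% of word copies were inside a wild type peak, in the second frame 1.55%, in the first 0.358% and before it 0.0251%. The highest value was 21.8%, at positions 6401 to 6600. In the KO list the share after the second frame was 0.0220%, against 0.0249% of all genome positions, and it was 0.000506% in the second frame, 0.000882% in the first and 0 before it. Within the last stretch it reached 0.0633% at positions 6601 to 6800, above the share of all genome positions, and 24 of the 32 LINE-1 members with a KO peak had their midpoint there. The 5′ stretch, which carries the promoter of full-length LINE-1, was thus covered less than the genome as a whole. The part of read placement in this pattern was not tested.

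**Figure D2:**
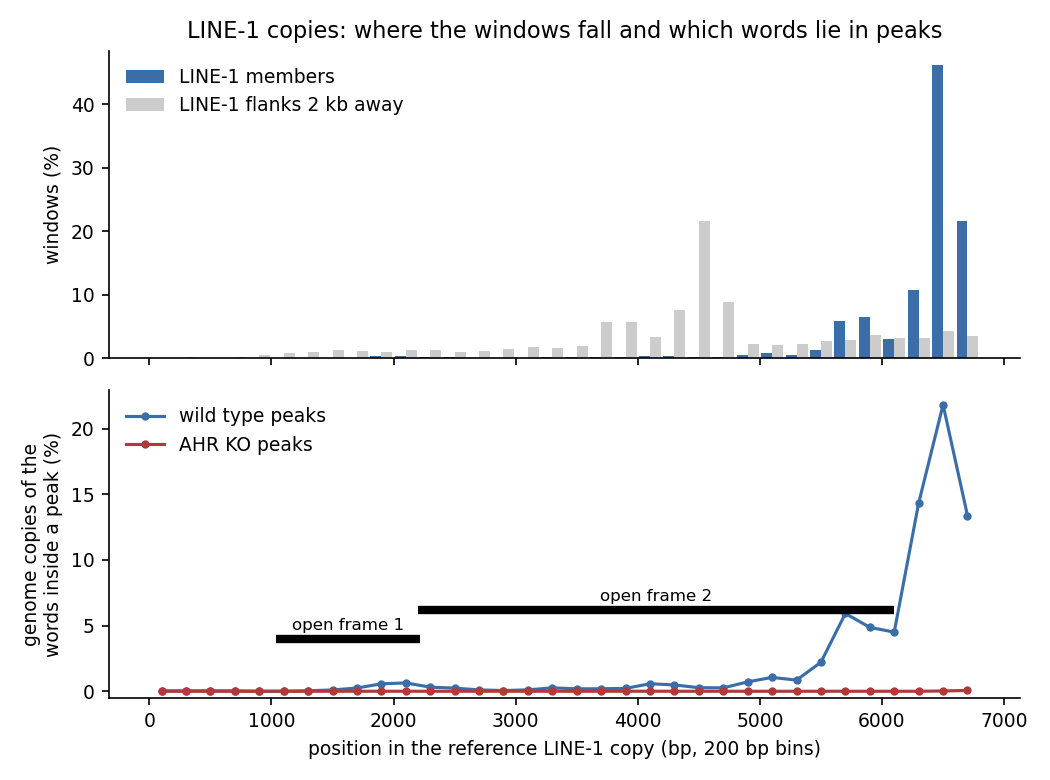
Position along the reference LINE-1 copy (x axis, 200 bp bins) of LINE-1 members and of LINE-1 windows among the flanks 2 kb away (upper panel, percent of windows), and the share of genome copies of the element's 24-base words inside wild type and AHR KO peaks (lower panel, percent, with the open frames as bars). The wild type line peaks at 21.8% at positions 6401 to 6600, where 46.1% of the LINE-1 members also lie, and the KO line stays below 0.1%, with a highest bin of 0.0633%.

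Identity to the reference copy had a median of 95.5% (quartiles 92.5 and 97.5). Scores fell a little as identity rose, from a median of 4.34 below 85% (896 members) to 4.03 at 99% and above (1706 members). Over the same range the mean share of unique 100-base words fell from 93.3% to 3.25%, so that identity and mappability moved together.

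The AHR word TNGCGTG was found in 2246 members (4.75%), against a background of 2.84% of all wild type peaks. It was more frequent than in CA-run peaks (377, 1.28%; odds ratio 3.86, interval 3.45 to 4.30, two-sided Fisher's exact test with Benjamini-Hochberg adjustment over 7 tests, adjusted p = 3.07e-167; peaks are not replicates, so p covers the counting error of these lists only) and less frequent than in unique peaks (53, 9.46%; odds ratio 0.477, interval 0.358 to 0.635, adjusted p = 5.92e-06). LINE-1 supplied 2192 of the 2246 members, and 8.18% of LINE-1 members held the word. It was in 38 B1 members (0.546%), 7 tandem members (0.0591%) and 9 of the remaining ones (0.530%). The excess over CA-run peaks ended where at least 90% of the 100-base words were unique (1.38% against 1.32%, Fisher's exact test, p = 0.553) and turned round for the core GCGTG alone (13.0% against 22.8%, odds ratio 0.508).

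Within LINE-1 the word had fixed places. Of the 2192 members with it, 1801 had their midpoint after the second open frame, and a further 342 at positions 5601 to 5800, where 21.7% of the members held it. At positions 6201 to 6400 only 4 of 2900 members did. The share was highest at 95 to 97% identity to the reference, 16.8%, and was 0.893% below 85% and 2.11% at 99% and above. The reference copy itself held the word at positions 415, 616 and 4586 and not near its 3′ end.

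The commonest word of 24 bases around the motif in LINE-1 members is shown with the 4 single-base changes that had over 100 genome copies, since the other bases of the word are then the same. Capitals mark the motif or the bases in its place, and substitutions are counted from 1 at the first base of the motif.

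motif: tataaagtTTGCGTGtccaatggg
C4T: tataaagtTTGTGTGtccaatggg
G5A: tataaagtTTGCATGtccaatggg
G5C: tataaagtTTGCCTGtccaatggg
G5T: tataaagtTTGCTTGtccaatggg

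The word with the motif had 7849 genome copies, 1806 of them inside a wild type peak (23.01%, Wilson interval 22.1 to 23.95). C4T, in which the CpG is TG, had 3682 copies with 19.7% in peaks (18.5 to 21.03). G5A, in which it is CA, had 2883 with 20.3% (18.8 to 21.8). G5C had 1264 copies with 16.0% in peaks (14.1 to 18.1), and G5T 345 with 15.9% (12.5 to 20.2). Over all 18 single-base changes that remove the motif, 1651 of 8639 copies lay in peaks (19.1%, 18.3 to 19.95). Both shares were far above the genome's 1.14%. The share was higher for the 1 word with the motif than for these changes together, and the intervals, which cover counting error only, did not overlap. Single changes that remove the motif ranged from 0 of 2 copies in peaks (G7C) to 18 of 64 (G3T). The changes T2A, T2C and T2G keep the motif, with 3 of 12, 1 of 16 and 2 of 17 copies in peaks. Their intervals held both 23.01% and 19.1%, so these few copies cannot show whether the motif itself went with a higher share. The word with the motif was chosen as the commonest in LINE-1 members, which are wild type peaks, and the changed words were not. That choice can by itself raise its share in peaks. Copies with and without the motif may also differ in age and in how many reads can be placed on them. The part of these and of the choice in the difference was not tested. In the KO list 6 copies of the word with the motif and 4 of the changed words lay in a peak.

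The 10 highest members with TNGCGTG were all LINE-1, with midpoints at positions 6567.5 to 6665.5 of the reference, and 1 of them overlapped a KO peak. The highest scored 13.99 and its sequence is not shown. The member at chr1:162811787-162811986 scored 11.9 and lay in an intron, 663 bp from the start of Fmo4, a flavin-containing monooxygenase. The one at chr16:37593905-37594107 scored 10.8 and lay in an intron, 13724 bp from the start of Hgd, an enzyme of tyrosine breakdown. The one at chr14:124566060-124566260, in an intron of Fgf14, scored 10.7 and was the member with a KO peak (KO score 8.14). The stretches around the motif are printed on the plus strand of mm10 with the motif in capitals, to show how alike they are at different loci.

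Fmo4, chr1:162811854-162811882: ggcccattggaCACGCAAactttatatat
Hgd, chr16:37593999-37594027: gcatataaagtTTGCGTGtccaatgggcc
Fgf14, chr14:124566110-124566138: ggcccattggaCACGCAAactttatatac
chr2:90161591-90161619: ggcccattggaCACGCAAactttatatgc
upstream of Dap, chr15:31207121-31207149: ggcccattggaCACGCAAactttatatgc

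These 5 members had scores of 11.9, 10.8, 10.7, 10.8 and 9.07, in the order printed. LINE-1 members with the word had a median score of 4.32 and those without it 4.18. All members after the second open frame, where 1801 of the 2192 with the word lay, also had a median of 4.32. Those in the second frame had 3.90, and the part of position in the difference was not tested.

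Members were next compared with a window 2 kb to one side, where that window obeyed the same sequence rule and touched no peak. This gave 12513 pairs, so most of the 47305 members had no usable flank. The paired members were richer in LINE-1 than the members as a whole (78.0% against 56.7%), and 15.4% of their windows held enough tandem bases to count as tandem. TNGCGTG was in 6.48% of the members and 6.08% of their flanks, a ratio of 1.07 that did not pass the test (743 pairs with the word in the member alone and 693 in the flank alone, exact binomial test, adjusted p = 0.196). The flanks were largely other parts of the same element: 74.0% of them matched LINE-1, and 653 of the 735 LINE-1 flanks with the word lay at positions 4401 to 4800, where the reference also holds it. At 5 kb the word was in 1.55% of the flanks and 6.16% of the members (ratio 3.97, exact binomial test, p = 9.91e-78). Where neither window was LINE-1 (1684 pairs) the members had it less often, in 0.0594% against 0.713% (exact binomial test, p = 0.00342). The core GCGTG was in 12.3% of members and 13.2% of flanks (exact binomial test, p = 0.0251).

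CpG dinucleotides were more frequent in the members than beside them, and so were G and C: the mean GC content was 46.6% in the members of the pairs and 39.6% in the flanks (46.9% and 42.01% at 5 kb). The CpG counts were not adjusted for GC, and its part in the difference was not tested. The mean was 1.74 CpG per 200 bp in the members of the pairs and 1.45 in the flanks, a ratio of 1.2003. The member had more CpG in 6057 pairs and the flank in 3527 (exact binomial sign test, adjusted p = 1.64e-148). With flanks 5 kb away the ratio turned to 0.883 (exact sign test, p = 2.42e-14), and in the pairs with no LINE-1 window it was 0.890 (p = 1.42e-04). In the 8185 pairs with both windows in LINE-1 it was 1.39 (1.88 against 1.35 CpG, exact sign test, p = 9.11e-237). Of the LINE-1 flanks at 5 kb, 6.08% lay in the first 1000 bp of the element, against 0.854% of those at 2 kb. Over all members the mean was 1.66, in B1 3.11, in LINE-1 1.91, in tandem repeats 0.371 and in unique peaks 4.24. It was 1.55 over all wild type peaks, 1.54 in partly masked peaks (25% to under 75% masked) and 1.33 in CA-run peaks, so that the members as a whole were near the background. The counts by distance from the midpoint describe the elements themselves, since each kind was assigned from the central 200 bp and more distant bases can lie outside the element. TNGCGTG occurred 8.35 times per 20 bp in 1000 LINE-1 members within 100 bp of the midpoint and 1.82 times at 300 to 500 bp, and 0.0760 and 1.08 times in tandem members.

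**Figure D3:**
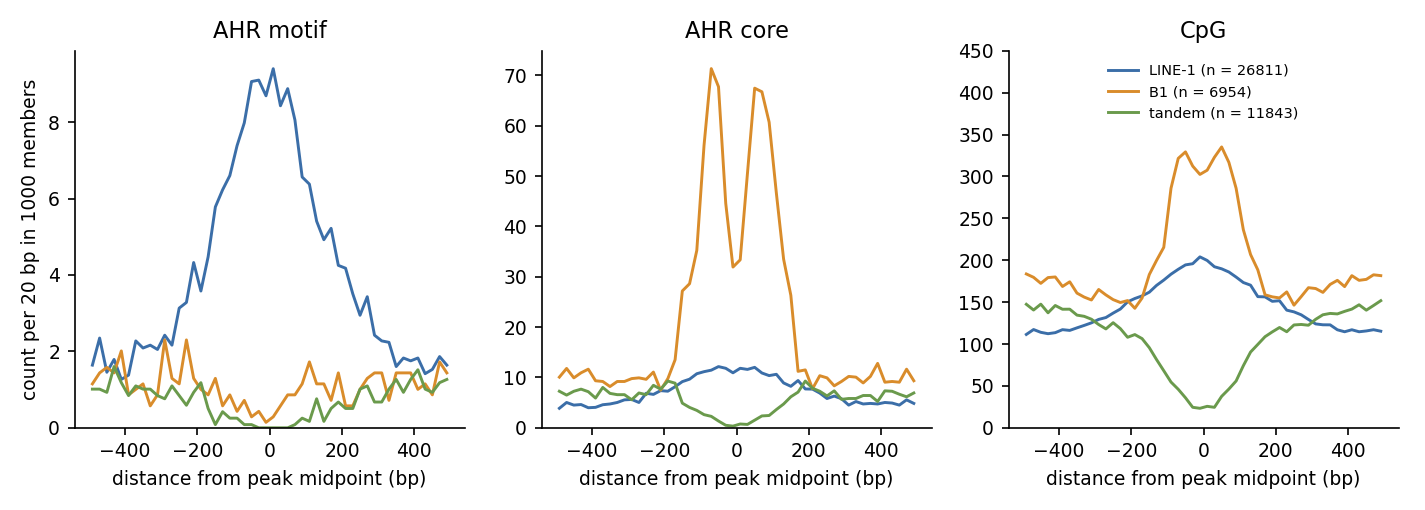
Count of the AHR motif TNGCGTG, of its core GCGTG and of CpG (y axes, per 20 bp in 1000 members) by distance from the peak midpoint (x axes, bp) in LINE-1, B1 and tandem members. Each kind was assigned from the central 200 bp, so the rise of the motif in LINE-1 and of the core and CpG in B1, and the dip in tandem members, are tied to that choice and do not show where AHR bound.

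Among B1 members the core was far more frequent than the full word. GCGTG was in 2992 of 6954 (43.0%, interval 41.9 to 44.2), against 17.7% of all wild type peaks, and TNGCGTG in 38. The core lies inside the element, and B1 sequence was covered evenly: over its words 8.34% of 1231432 genome copies were inside a wild type peak, between 7.76% and 8.72% in 5 stretches along it, and 0.0174% inside a KO peak. The commonest word around the core is shown with the changes that turn its CpG into TG or CA, with the core in capitals and positions counted from its first base.

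core: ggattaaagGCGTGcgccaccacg
C2T: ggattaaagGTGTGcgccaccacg
G3A: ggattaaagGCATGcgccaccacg

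Inside wild type peaks were 7.28% of the 6210 copies with the core (interval 6.66 to 7.95), 8.18% of the 1601 copies with C2T (6.94 to 9.63) and 7.64% of the 1766 with G3A (6.50 to 8.98). All 15 changes together gave 332 of 4176 copies (7.95%, 7.17 to 8.81). The intervals of the copies with and without the core overlapped. The B1 member with the core and the highest score, 10.8, was at chr9:70529998-70530191 and is printed on the plus strand with the core (here on the minus strand) in capitals. Its 3′ part is a run of A.

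chr9:70529995-70530194: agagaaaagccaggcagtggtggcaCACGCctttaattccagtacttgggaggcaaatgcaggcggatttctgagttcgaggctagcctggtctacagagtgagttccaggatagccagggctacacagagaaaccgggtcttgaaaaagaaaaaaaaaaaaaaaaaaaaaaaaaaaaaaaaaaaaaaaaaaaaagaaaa

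The tandem members were mostly rows of A and G. The leading unit was made of A and G alone (C and T on the other strand) in 10457 of 11843 (88.3%). AG led with 3303 members, followed by AAAG with 1965, AAGG with 1378, AAG with 1289 and AGG with 958. TNGCGTG was in 7 tandem members and GCGTG in 131 (1.11%). The unit AGAGGC, with 518 members, had the highest coverage by copies: of 29651 genome copies of its 24-base word 64.8% lay inside a wild type peak, the highest share among those 25 words, and none inside a KO peak. These copies overlap and lay at 1939 places, with neighbouring copies counted together. The share of places inside a peak was not counted.

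Of the 10 highest members 9 were tandem, and 6 of the 10 overlapped a KO peak. Among the 79 members that scored 10 or more, 44.3% were tandem and 13 (16.5%) overlapped a KO peak, against 0.387% of all members. The highest, at chr6:50254986-50255549 in an intron of Gsdme (a gasdermin, a pore-forming protein of cell death), scored 33.6 and had no KO peak. The second, at chr17:4626044-4626699, scored 23.2 and overlapped the KO peak with the highest score of any that met a member, 28.7. The third, at chr3:93554765-93555154, scored 20.9, lay at the promoter of S100a10, a protein partner of annexin, and had no KO peak. Beside its AG row it held 1 GCGTG, 4 CpG and 2 CA or TG runs. The sixth, at chr14:104336829-104337152, scored 19.7, had a KO peak of 21.8 and held 13 CpG and no GCGTG. The third, the sixth and the one at chr9:19575300-19575654 (score 20.6, KO 15.5) are printed on the plus strand with bases in perfect tandem runs in capitals. They show an AG row with no KO peak and rows of GGAAT and GGAAC with one. The GCGTG of the third stays in lower case, within a stretch of TG.

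S100a10, chr3:93554860-93555059: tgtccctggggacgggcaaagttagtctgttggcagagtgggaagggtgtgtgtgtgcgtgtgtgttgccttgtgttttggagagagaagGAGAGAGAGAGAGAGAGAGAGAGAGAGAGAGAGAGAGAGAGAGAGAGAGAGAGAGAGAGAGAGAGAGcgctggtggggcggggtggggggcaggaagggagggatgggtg
chr9:19575378-19575577: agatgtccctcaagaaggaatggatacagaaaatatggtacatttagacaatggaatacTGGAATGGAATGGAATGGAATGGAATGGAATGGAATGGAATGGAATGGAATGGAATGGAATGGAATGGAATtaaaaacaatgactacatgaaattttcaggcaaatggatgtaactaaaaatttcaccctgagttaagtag
chr14:104336891-104337090: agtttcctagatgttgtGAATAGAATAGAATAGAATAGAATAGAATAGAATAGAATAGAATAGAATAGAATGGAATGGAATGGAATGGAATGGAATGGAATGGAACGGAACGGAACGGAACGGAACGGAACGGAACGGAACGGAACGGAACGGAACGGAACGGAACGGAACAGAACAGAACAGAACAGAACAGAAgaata

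Few members had a KO peak. The overlap, counted from 1 bp, was 183 of 47305 (0.387%, Wilson interval 0.335 to 0.447), against a background of 1.46% of all wild type peaks. CA-run peaks supplied 1397 of the 1805 wild type peaks behind that background. In the 45967 partly masked peaks the share was 0.466% (interval 0.407 to 0.532), which overlapped the interval of the members, so that the low overlap was no mark of the members. It was lower in members than in CA-run peaks (1397 of 29534, 4.73%; odds ratio 0.0782, interval 0.0670 to 0.0913, Fisher's exact test with a p too small for double precision). Within deciles of score and quintiles of width the odds ratio was 0.330 (interval 0.277 to 0.394). Against unique peaks (11 of 560, 1.964%) the odds ratio was 0.194 (interval 0.105 to 0.358, Fisher's exact test, adjusted p = 2.39e-05). Within the same strata it was 0.562 and no longer passed (Mantel-Haenszel interval 0.305 to 1.04). In the top 10% of scores it was 2.79, with 3.59% of 1114 members and 1 of 76 unique peaks (Fisher's exact test, p = 0.512). The overlap rose with score, from 0.0726% of members under 4 to 16.5% of the 79 at 10 or more. In CA-run peaks it was 1.25% under 4, 0.837% from 4 to 5 and 31.1% at 10 or more.

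The KO overlap was unevenly spread over the kinds. It was 0.119% in LINE-1 (32 of 26811, interval 0.0846 to 0.168), 0.216% in B1 (15 of 6954), 0.836% in tandem repeats (99 of 11843) and 2.18% in the remaining members (37 of 1697). Among tandem members it was 0.459% (48 members) for units of A and G alone and 3.68% (51 members) for the other 1386. Single units held much of both counts, as 25 of the 48 were runs of A and 29 of the 51 had the unit AACCCT. The unit AACCCT, the repeat of telomeres, had a KO peak in 29 of 54 members (53.7%, interval 40.6 to 66.3). A run of A had one in 25 of 87 (28.7%, interval 20.3 to 39.0), and AATGG in 6 of 11 (54.5%, interval 28.01 to 78.7). The AG unit had one in 4 of 3303. The telomere unit, the A run and AATGG were singled out after their values had been seen.

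**Figure D4:**
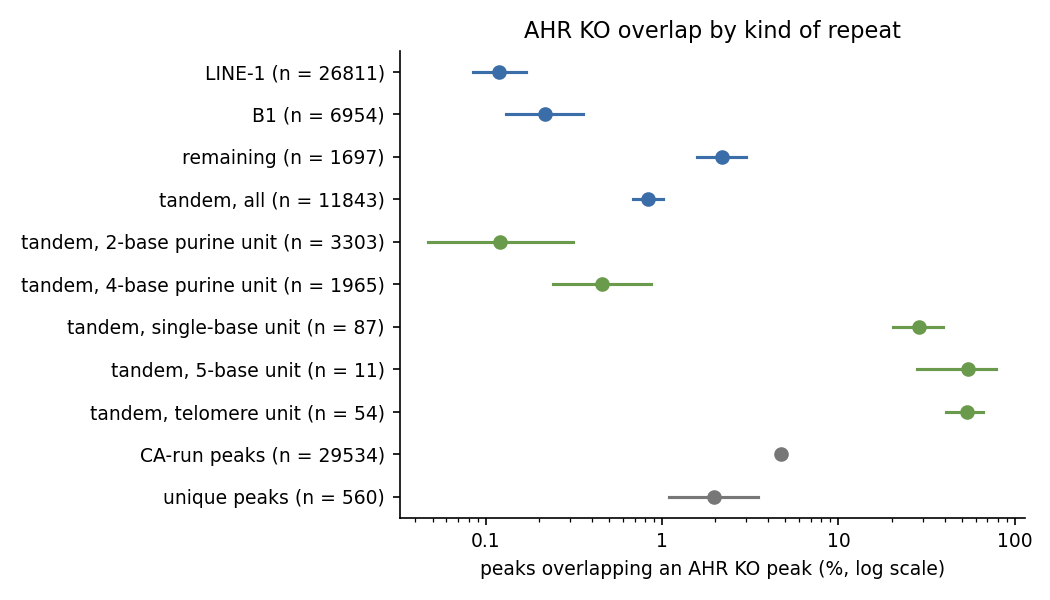
Share of wild type peaks that overlap an AHR KO peak (x axis, percent on a log scale; points with 95% Wilson intervals) for each kind of member, 5 tandem units, CA-run peaks and unique peaks, with the number of peaks in each label. The 2-base and 4-base units are AG and AAAG, and the single-base unit A is also made of purine alone. LINE-1 and AG lie near 0.1%, while the telomere unit (53.7%), the 5-base unit AATGG (54.5%) and the single-base unit A (28.7%) lie far above CA-run peaks (4.73%).

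Of the 10 members on the highest KO peaks, 5 had AATGG as the leading unit and 1 had AACGG. The others were the AGG row at chr10:117025458-117026324 (score 17.0, KO 13.3), LINE-1 sequence at chr7:69101639-69102025 (score 12.1, KO 11.99, with no unique 100-base word), and 2 of the remaining kind. These last were chr4:3089338-3091265 (score 7.57, KO 12.8) and chr12:67059065-67060007 in an intron of Mdga2 (score 6.35, KO 12.2). Taken from the KO side, 183 of 1873 KO peaks (9.77%) obeyed the rule, and 174 of these met a wild type peak. Of the 183 peaks, 24.6% were LINE-1, 7.65% B1 and 45.4% tandem. The AHR word was in 6 of these 183 KO peaks (3.28%), and in 2 of the members with a KO peak. The highest member with word 5, LINE-1 sequence at chr5:100987590-100988202, scored 9.32 and had a KO peak of 7.496, and the highest with word 4, in an intron of Ap1g1, scored 9.94 and had none.

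Most members lay between genes, as did most wild type peaks. Of the members' midpoints 61.7% were intergenic, 35.6% in introns, 0.531% in exons and 1005 (2.12%) at a promoter, which reached from 1 kb before a transcription start to 100 bp after it. Over all wild type peaks 54.9% were intergenic, 41.2% in introns, 0.963% in exons and 2.95% at a promoter. The promoter share was lower in members than in CA-run peaks (771, 2.61%; odds ratio 0.810, interval 0.736 to 0.890, Fisher's exact test, adjusted p = 2.17e-05). In the top 10% of scores the direction turned (3.23% against 2.63%, odds ratio 1.24, Fisher's exact test, p = 0.235). LINE-1 members were at a promoter in 1.06%, tandem members in 2.70% and B1 members in 5.12%.

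At promoters of protein-coding genes there were 510 members. The 10 highest scored from 8.06 to 20.9, comprised 7 tandem, 2 B1 and 1 LINE-1 member. None of them had a KO peak, which says little beside 7 of the 1005 members at any promoter. After S100a10 came Zfp710 (a zinc finger protein) with 10.6, Tm7sf3 (a 7-transmembrane protein) with 9.97 and Stau2 (an RNA-binding protein) with 9.64. B1 members lay upstream of Ppp2cb, a catalytic subunit of phosphatase PP2A, with 9.28, and upstream of Ireb2, an iron-responsive RNA-binding protein, with 8.42. Mettl27, Duxbl1 and Hoxd3 had tandem members with 9.23, 8.06 and 8.06. The LINE-1 member upstream of Gm6526 scored 8.06 and was the only 1 of the 10 with TNGCGTG.

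Genes of the AHR pathway and of colonic epithelium were then looked up, with a member counted in the gene or within 10 kb of it. Of 41 genes 22 (53.7%) had at least 1 member, against a background of 49.3% of all protein-coding genes, with no allowance for gene length and no test of the difference. In the AHR battery 4 of 10 genes had one. Ahrr, which codes for the repressor of AHR, had 2, the higher a LINE-1 peak with 4.98. Of the detoxifying enzymes, Nqo1 had a B1 peak with 5.65 and Ugt1a6a 3 tandem members, the highest an AG row with 6.98. The oxidase gene Xdh had a LINE-1 peak with 5.32. Cyp1a1, Cyp1a2, Cyp1b1, Tiparp, Aldh3a1 and Gsta1 had none.

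Among the identity genes and active targets 4 of 10 had a member: Cdx2 (4.27), Il33 (5.32), Itga2 (7.54) and Nrp2 (4.98). The member in Itga2, the collagen-binding integrin subunit, was LINE-1 with a unique window at chr13:114841947-114842219, and the only one of the members at these genes with TNGCGTG. Of the Wnt and stem genes 4 of 6 had members. Lgr5, the stem cell receptor for R-spondins, had 6, the highest an AGAGGC row with 9.65, and Znrf3, a ligase that removes Wnt receptors, 2 with a top score of 7.46. Ascl2 and Ephb2 had 1 each, with 5.64 and 4.65. Of the YAP and fetal-like genes 5 of 8 had at least 1. The highest were at 6.58 for Anxa1 (3 members), 6.31 for Tead1 (4) and 6.15 for Ccn2 (2). Yap1 and Ly6a had 1 each, at 3.90 and 3.77. Of the differentiation genes 5 of 7 had one, with the chloride exchanger Slc26a3 at 5.92, Krt20 at 4.98, Dclk1 at 4.32, the mucin gene Muc2 at 4.10 and Car1 at 3.90. None of the 37 members at these genes overlapped a KO peak, and with a share of 0.387% over all members so small a number says nothing about these genes.

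Members were spread over the autosomes at 16.6 to 20.4 per Mb. On X there were 8.57 per Mb and on Y 4.65. On X 87.0% of the members were LINE-1, while the tandem members fell from at least 4.23 per Mb on the autosomes to 0.585 and the CA-run peaks from at least 10.4 to 0.906. B1 members were densest on chromosome 11, with 4.46 per Mb, where LINE-1 members were at 6.46 per Mb, the lowest value of any autosome.

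**Figure D5:**
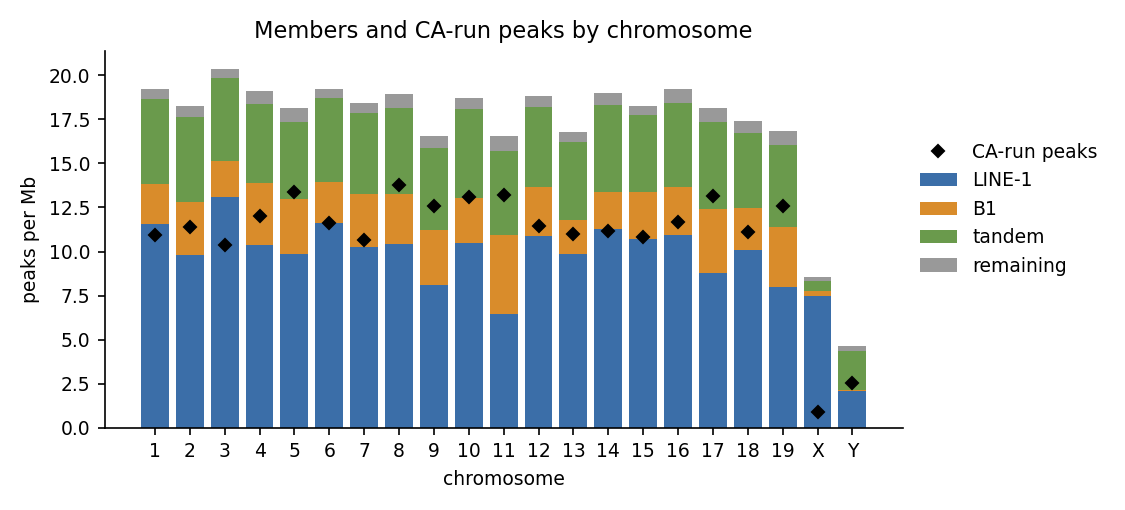
Members per Mb (y axis) on each chromosome (x axis), stacked by kind of repeat, with CA-run peaks per Mb as diamonds. Autosomes hold 16.6 to 20.4 members per Mb, X 8.57 and Y 4.65, and on X 87.0% of the members are LINE-1.

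At the limits of the rule, windows just inside and just outside were as follows. Members with 2 CA or TG runs (620) had a KO peak in 1.13% and TNGCGTG in 0.161%, and peaks just outside with 3 runs (646) in 0.929% and 0.464%. Members from 75 to 80% masked (1517) had a KO peak in 0.725% and the word in 0.791%, and peaks from 70 to 75% masked (1165) in 0.944% and 0.773%. By number of runs, TNGCGTG was in 5.15% of the members with none and 0.653% of the 3520 with 1. The bulk lay far from both limits, as 43165 members (91.2%) had no run and 35995 (76.1%) were masked throughout.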

How the data were processed

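AHR ChIP-seq of mouse colon organoids gave the deposited peak lists used here. The authors aligned reads with BWA 0.7.15, used Picard 2.1.1, called peaks against input with MACS2 2.1.1 and annotated them with HOMER 4.8 on mm10. The authors' score is a fold enrichment (a ratio of ChIP pileup to background), and no read depth per sample was analysed here. The wild type list pools all cultures. Starts were read as 1-based, since 9 peaks start at 1 and none at 0. Windows of 200 bp were read from mm10, with GENCODE M21 genes. Tandem runs were perfect rows of at least 3 units and 12 bases. Element copies were aligned with BLAST+ 2.17.0 at 70% identity or more. Intervals on shares are 95% Wilson intervals and reflect counting error alone. Shares were compared by two-sided Fisher's exact tests and pairs by exact binomial tests, with Benjamini-Hochberg adjustment over 7 tests (scipy 1.17.1, statsmodels 0.14.6, numpy 2.4.6, pandas 2.3.3, Python 3.11.15, figures with matplotlib 3.10.9). The counting and the tests were tested on simulated data. Regions named were the 10 highest by score, with TNGCGTG, by KO score and at coding promoters, the highest with each of 5 recurrent words, and the highest within 10 kb of each gene of 5 lists. The members and the lists were chosen with earlier results of these data known, and the kinds of repeat, the reference copies and the changed words after the sequences had been seen. Alternatives for masking, runs, mappability, score, overlap, flanks, promoters and words are given in the closing section. Some members' sequences are not reported here.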

Additional observations from a re-analysis of the deposited data

How the results depend on the processing

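Of the alternatives, 55 were planned and 4 (pairs with both or neither window in LINE-1) were chosen after seeing the data. The lower KO overlap than in CA-run peaks kept its direction and passed under all 7 of its alternatives, and the lower motif share than in unique peaks under all 6. In the top 10% of scores there were 1114 members, the KO share was 3.59%, the KO odds ratio against unique peaks turned to 2.79, the promoter odds ratio turned to 1.24, the CpG ratio was 1.09 without passing and 99.91% held a repeated word. With 90% of 100-base words unique there were 21111 members, the KO share was 0.535%, the motif odds ratio against CA-run peaks was 1.05 without passing and the motif ratio to flanks turned to 0.698. With no base in a tandem run there were 27117 members, the KO share was 0.122% and the motif ratio to flanks 0.973, which was also 0.973 at 90% masked or more. A reciprocal overlap of 50% gave a KO share of 0.315%. Within strata of score and width the KO odds ratio against unique peaks was 0.562 and did not pass. The core GCGTG turned the motif odds ratio against CA-run peaks to 0.508 and the ratio to flanks to 0.933. Flanks at 5 kb gave a motif ratio of 3.97, which passed, and turned the CpG ratio to 0.883. With both windows in LINE-1 the motif ratio was 0.934 and the CpG ratio 1.39, and with neither it was 0.0833 and the CpG ratio 0.890. A repeated word was held by 99.6% at 100 copies and by 99.4% for 32-base words. The causes were not tested. No paired analysis was possible because values of single cultures are not in the pooled peak list, and for the same reason no replicate could be left out.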
